A study of Mus musculus with 96 samples.

Results

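The liver libraries of a mouse reprogramming series were split by their level of Pou5f1, the gene for the pluripotency factor Oct4. The 6 libraries with Pou5f1 at 5 CPM (counts per 1000000 counts of the library) or more were compared with the 9 libraries below 1 CPM, which together are all 15 liver libraries among the 96 of the series. The libraries were selected on measured Pou5f1 values, so the split is an association with the Pou5f1 level and stands for no genotype or treatment. Total RNA was sequenced from frozen liver of mice 2 months old. The labels give 3 liver samples each of the reprogrammable strains 4Fj, 4FsB, 4Fk and 4FsA and of WT controls. They name no inducing agent, dose or time, no sex, and no promoter or insertion site of a transgene. The columns of the table carry only a tissue code and a running number, so no library was given a genotype, and libraries are called here by that number. Libraries 4, 5, 6, 10, 11 and 12 are those with Pou5f1, and libraries 1, 2, 3, 7, 8, 9, 13, 14 and 15 are those without it. Every p-value treats the libraries as independent samples, although libraries of 1 genotype may share a side, which cannot be told from the columns. Nothing in the labels ties the libraries to separate animals either, so the p-values measure the spread between these libraries.

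Pou5f1, Sox2, Klf4 and Myc are the Yamanaka factors, which together can turn differentiated cells into pluripotent ones and are used in reprogrammable mice to do so in the living animal. The adult liver is built mainly of hepatocytes, which make plasma proteins, urea, glucose, bile acids and lipids, and hold only low levels of these factors. Myc is also known as an activator of genes for ribosome and nucleotide production, and Oct4 and Sox2 of the genes that keep embryonic stem cells undifferentiated.

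Library totals overlapped between the groups. They ran from 8473767 to 14176807 estimated counts with Pou5f1, against 8211684 to 11796997 without it (two-sided exact permutation test of the means, p = 0.326). Mitochondrially encoded genes took 9.39% ± 6.57 of the counts with Pou5f1 (SD, n = 6) and 12.6% ± 10.0 without it (SD, n = 9; exact permutation p = 0.505), with the 2 highest shares, 33.0% and 22.4%, in libraries 13 and 14. A count of 0 allows up to 0.212 to 0.365 CPM in these libraries (3 counts, counting error only). Library 1 was the only library without Y-linked counts, and held the X-inactivation gene Xist at 408 CPM, against at most 0.732 CPM in the others. All 15 libraries carried the hepatocyte gene Alb, for albumin, at 34610.4 to 62948 CPM (median 51639) in the libraries with Pou5f1, against 32793 to 97497 CPM (median 64820.1) in those without it, while the intestinal master gene Cdx2 was at 0 in all 15. Libraries 10, 11 and 12 agreed closely, with a Pearson r of log2(CPM + 1) across genes of 0.96 to 0.984 with each other. Their r was 0.71 to 0.848 with the libraries without Pou5f1, and that of libraries 5 and 6 was 0.741 to 0.863. Other libraries with neighbouring numbers also agreed, with 0.947 between libraries 5 and 6. Among libraries 1 to 3 the r was 0.94 to 0.955, and among libraries 13 to 15 it was 0.943 to 0.972. Library 4, which had the highest Pou5f1, had an r of 0.827 to 0.946 with the libraries without it. Results are therefore also given without libraries 10 to 12 and without libraries 4 to 6, as fits of 3 against the same 9 libraries, chosen after these correlations were seen. The 9 libraries without Pou5f1 were not split in this way.

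The level of Pou5f1, which set the split, was 199, 5.71, 18.7, 63.4, 83.4 and 43.6 CPM in libraries 4, 5, 6, 10, 11 and 12, against 0 to 0.494 CPM (median 0.222) in the libraries without it. The libraries nearest the cuts were library 5 at 5.71 CPM and library 9 at 0.494 CPM, and no liver library lay between 1 and 5 CPM. Sox2, a partner of Oct4 on DNA, was at 200.5, 7.65, 17.7, 233, 320.3 and 139.8 CPM in the same libraries, again lowest in libraries 5 and 6, against 0 to 1.05 CPM (median 0) without it. Klf4, a zinc-finger factor of epithelial cells, was at 341, 21.2, 52.1, 131, 175 and 94.4 CPM in these libraries, against 0.505 to 7.29 CPM (median 2.44) without it. Myc, which drives cell growth, was at 424, 144, 109, 709, 866 and 336 CPM in these libraries, against 1.99 to 21.8 CPM (median 9.74) without it. The levels of all 4 factors therefore did not overlap between the groups. These values are a description with no test, and whether the counts come from a transgene or from the mouse's own genes was not tested.

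**Figure D1:**
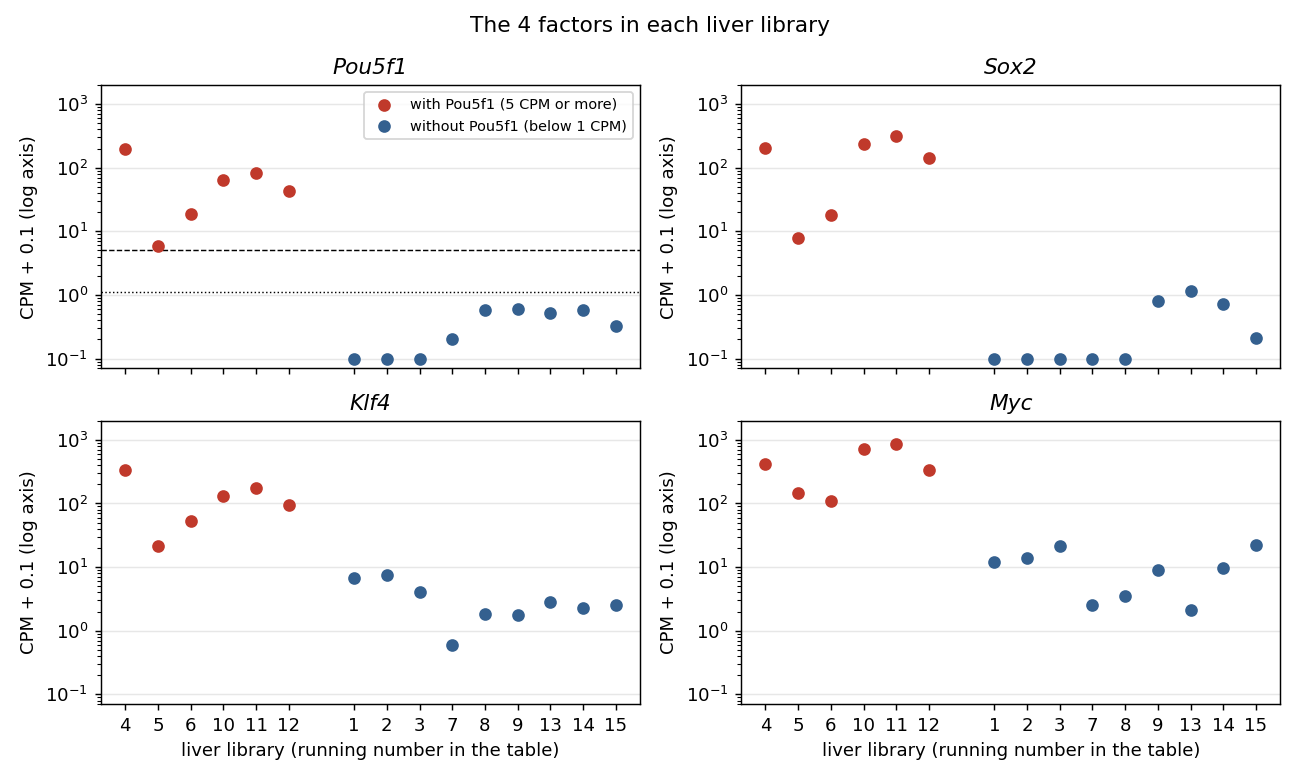
CPM plus 0.1 on a log axis for the 4 factors, 1 point a library, with the 6 libraries with Pou5f1 on the left and the 9 without it on the right of each panel. In the Pou5f1 panel the dashed line marks 5 CPM and the dotted line 1 CPM. Library 4 is highest for Pou5f1 and Klf4, library 11 for Sox2 and Myc.

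Across the genes of the liver, 1098 of 13173 tested genes besides the 4 factors were called higher with Pou5f1, or 8.34%, and 1317 were called lower, or 10.0%. A gene was tested when it reached 1 CPM in at least 6 libraries. It was called at an adjusted p under 0.05 in edgeR's quasi-likelihood test with a log2 fold change of at least 1 in size. Of the tested genes, 485 were higher in each of the 6 libraries than in any of the 9, or 3.68%, and 108 were lower in each, or 0.82%. Overlap was judged on CPM, which lacks the library scaling factors (TMM) used in the edgeR test. Those factors were 0.59 and 0.676 in libraries 7 and 8, and 0.986 to 1.30 in the libraries with Pou5f1. The part of this scaling in the 3.68% and 0.82% was not tested. The median log2 fold change over the tested genes was -0.07. Of the tested genes, 6 reached 1 CPM in the libraries with Pou5f1 alone and 70 in those without it alone. Such genes passed the filter through the group in which they are high, and 6 and 66 of them were called. Without libraries 10 to 12, 472 of 12730 genes were called higher, or 3.71%, and 210 lower, or 1.65%. Without libraries 4 to 6, 1382 of 12716 were called higher, or 10.9%, and 1978 lower, or 15.6%. Both fits kept the filter of 6 libraries, so genes under 1 CPM in all libraries without Pou5f1 could not be tested. Of the 1098 genes called higher with all libraries, 1004 were tested without libraries 10 to 12 and 1006 without libraries 4 to 6. Of the 1317 called lower, 1314 and 1309 were.

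**Figure D2:**
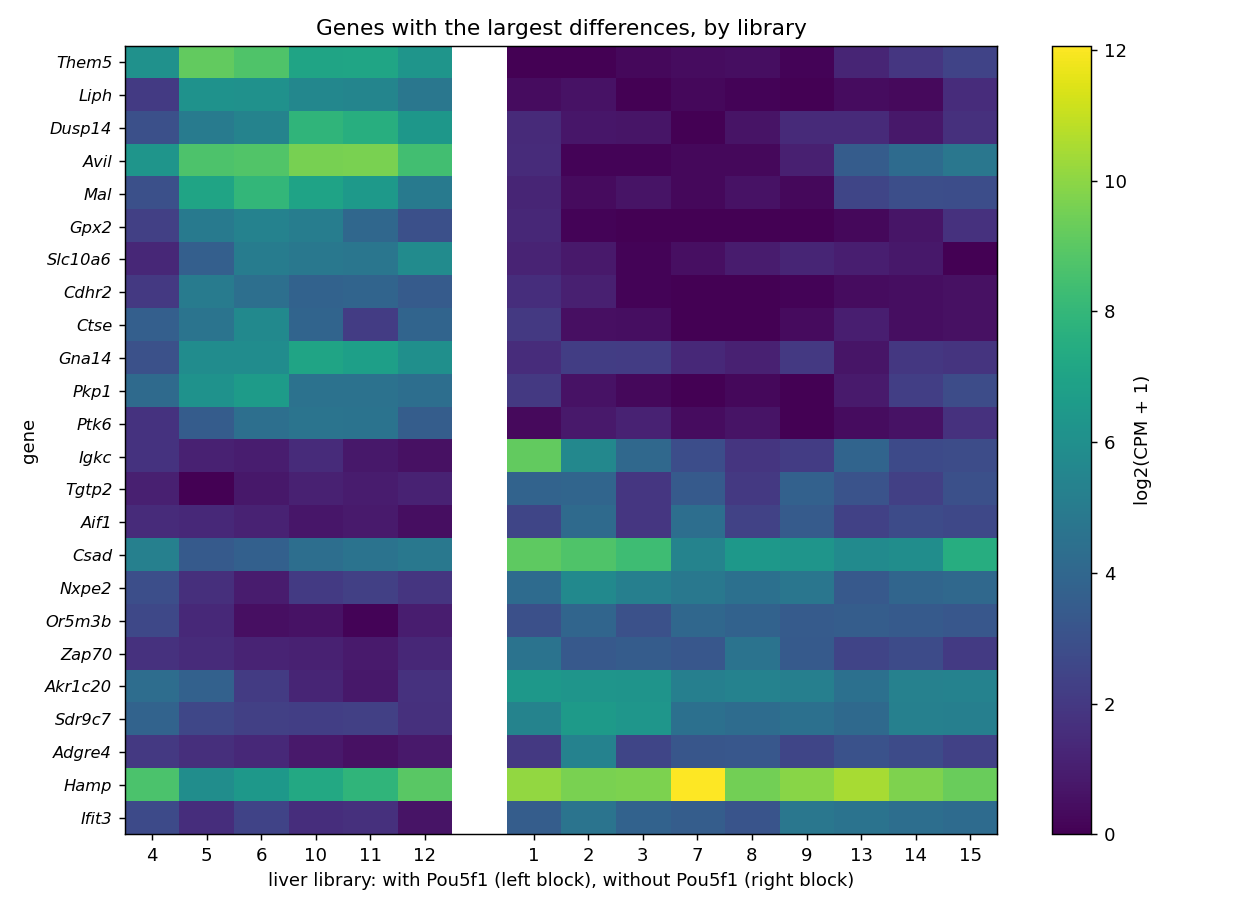
Levels as log2(CPM + 1), by library, of 12 genes with an increase (upper rows) and 12 with a decrease (lower rows). They have the largest fold changes among called genes with a mean of 5 CPM or more and no overlap between the groups. The left block holds the 6 libraries with Pou5f1 and the right block the 9 without it; in library 4 several of the upper genes, such as Liph at 3.19 CPM, are lower than in the other 5 libraries of that block.

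The 12 genes with the largest increase were ranked among called genes with a mean of 5 CPM or more and no group overlap. Their groups therefore do not overlap by selection, and some called genes with overlap, such as Psat1, rose more than the last of them. The 12 were mostly near 0 in the livers without Pou5f1. Them5, a mitochondrial acyl-CoA thioesterase, had 67.4, 564, 431, 132, 136 and 76.8 CPM in the libraries with Pou5f1, against 0, 0, 0.178, 0.303, 0.386, 0.0988, 1.36, 2.80 and 4.43 CPM in those without it. Them5 differed by 7.59 ± 0.94 (edgeR adjusted p = 0.000113) on the log2 scale, where the error is the standard error. Liph, a phospholipase that releases lysophosphatidic acid, was at 3.19 to 70.6 CPM (median 45.3) in the libraries with Pou5f1, against 0 to 1.88 CPM (median 0.244) in those without it, a log2 fold change of 6.56 ± 0.72 (edgeR adjusted p = 6.35e-05). Library 4 held its lowest value on the side with Pou5f1, 3.19 CPM, and library 15 its highest on the other, 1.88 CPM. Dusp14, a phosphatase that acts on MAP kinases, was at 6.61 to 233 CPM (median 62) in the libraries with Pou5f1, against 0 to 2.22 CPM (median 0.731) in those without it, a log2 fold change of 6.20 ± 0.67 (edgeR adjusted p = 6.35e-05). Avil, an actin-binding protein of the villin family, had 76, 407, 438, 779.6, 795 and 341 CPM in the libraries with Pou5f1, against 1.78, 0.0973, 0.0893, 0.202, 0.193, 1.09, 10.5, 17.4 and 26.6 CPM in those without it. The highest levels were in libraries 10 and 11, and the log2 fold change was 6.0 ± 1.08 (edgeR adjusted p = 0.00136). Among the livers without Pou5f1, Avil was highest in libraries 13, 14 and 15.

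Several genes of barrier epithelia were among the 12. Mal, a membrane protein of apical transport in epithelial cells, was at 6.73 to 252 CPM (median 107) in the libraries with Pou5f1, against 0.198 to 6.45 CPM (median 0.536) in those without it, a log2 fold change of 5.36 ± 0.85 (edgeR adjusted p = 0.000591). Gpx2, the glutathione peroxidase of the gut lining, was at 3.89 to 40 CPM (median 22.7) in the libraries with Pou5f1, against 0 to 2.33 CPM (median 0.0973) in those without it, a log2 fold change of 5.18 ± 0.85 (edgeR adjusted p = 0.000729). Cdhr2, a cadherin that links microvilli of the brush border, was at 2.95 to 31 CPM (median 13.4) in the libraries with Pou5f1, against 0 to 2.03 CPM (median 0.314) in those without it, a log2 fold change of 4.78 ± 0.68 (edgeR adjusted p = 0.000323). In each of these 3 genes the lowest value with Pou5f1 belonged to library 4. Ctse, the aspartic protease cathepsin E known from gastric epithelium, was at 3.41 to 52 CPM (median 13.8) in the libraries with Pou5f1, against 0 to 3.05 CPM (median 0.365) in those without it, a log2 fold change of 4.78 ± 0.73 (edgeR adjusted p = 0.000434). Pkp1, a desmosome protein of stratified epithelia, was at 17.2 to 95.7 CPM (median 22.6) in the libraries with Pou5f1, against 0 to 5.99 CPM (median 0.486) in those without it, a log2 fold change of 4.58 ± 0.82 (edgeR adjusted p = 0.00131). Ptk6, a tyrosine kinase of epithelial cells, was at 2.36 to 24 CPM (median 15.5) in the libraries with Pou5f1, against 0 to 2.33 CPM (median 0.487) in those without it, a log2 fold change of 4.18 ± 0.61 (edgeR adjusted p = 0.000332). The other genes of the 12 are a transporter of sulfated steroids, Slc10a6, with 1.53 to 55.4 CPM (median 26.6) in the libraries with Pou5f1, against 0 to 1.38 CPM (median 0.778) in those without it (4.90 ± 0.67, edgeR adjusted p = 0.00024), and the G protein subunit Gna14. Gna14 was at 6.84 to 129.6 CPM (median 60.5) in the libraries with Pou5f1, against 0.627 to 3.50 CPM (median 2.55) in those without it, a log2 fold change of 4.69 ± 0.45 (edgeR adjusted p = 5.66e-05). All 12 were called in each alternative in which they were tested, but Liph, Gpx2, Cdhr2, Ctse and Ptk6 were under the filter without libraries 10 to 12, without libraries 4 to 6 and with a minimum of 5 CPM. Slc10a6 was also under that minimum, and Liph under the filter without the 2 libraries highest in Pou5f1.

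The 12 genes with the largest decrease, also ranked among genes without overlap, included genes of immune cells, of hepatocyte metabolism and of iron control. Igkc, the constant region of the immunoglobulin kappa light chain, was at 0.442 to 2.36 CPM (median 1.04) in the libraries with Pou5f1, against 2.61 to 577 CPM (median 6.26) in those without it, with its highest value in library 1. Its log2 fold change was -5.95 ± 1.35 (edgeR adjusted p = 0.00526), and the call ended with limma-voom (-3.95, adjusted p = 0.061) and without libraries 10 to 12 (-5.62, edgeR adjusted p = 0.11). Aif1, an actin-binding protein of macrophages, was at 0.353 to 1.77 CPM (median 1.01) in the libraries with Pou5f1, against 2.77 to 19.7 CPM (median 5.21) in those without it, a log2 fold change of -3.32 ± 0.60 (edgeR adjusted p = 0.00143). Adgre4, a macrophage surface receptor, was at 0.449 to 2.95 CPM (median 1.22) in the libraries with Pou5f1, against 2.97 to 40 CPM (median 5.84) in those without it, a log2 fold change of -2.93 ± 0.62 (edgeR adjusted p = 0.00342) that was not called without libraries 10 to 12 (edgeR adjusted p = 0.0886). Zap70, a kinase of the T cell receptor, was at 0.841 to 2.24 CPM (median 1.40) in the libraries with Pou5f1, against 3.10 to 23.1 CPM (median 9.24) in those without it, a log2 fold change of -3.21 ± 0.52 (edgeR adjusted p = 0.000729). Tgtp2, an interferon-induced GTPase with a near-identical copy that can share its reads, was at 0 to 1.26 CPM (median 0.972) in the libraries with Pou5f1, against 2.74 to 14.5 CPM (median 7.53) in those without it, a log2 fold change of -3.47 ± 0.57 (edgeR adjusted p = 0.00079).

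Among the hepatocyte genes of the same 12, Csad, which makes the taurine used to conjugate bile acids, had 36.7, 9.81, 12.2, 19.5, 22.9 and 27.6 CPM in the libraries with Pou5f1, against 535, 421, 317, 41.6, 86.2, 78.5, 53.4, 58.5 and 180.3 CPM in those without it. The log2 fold change of Csad was -3.28 ± 0.57 (edgeR adjusted p = 0.00107). Akr1c20, an aldo-keto reductase, was at 0.718 to 18.6 CPM (median 2.79) in the libraries with Pou5f1, against 20.6 to 86 CPM (median 39.3) in those without it, a log2 fold change of -3.18 ± 0.62 (edgeR adjusted p = 0.00225). Sdr9c7, a short-chain dehydrogenase, was at 2.21 to 13.1 CPM (median 3.92) in the libraries with Pou5f1, against 16.4 to 94.2 CPM (median 35.6) in those without it, a log2 fold change of -3.10 ± 0.46 (edgeR adjusted p = 0.000352). Hamp, which encodes the iron hormone hepcidin, had 404, 59.1, 86.1, 154, 238 and 496 CPM in the libraries with Pou5f1, against 1088, 804, 819, 4271, 709.5, 970.3, 1418, 847 and 629.6 CPM in those without it. The highest value, 4271 CPM, was in library 7, and the log2 fold change was -2.88 ± 0.70 (edgeR adjusted p = 0.00771). The Hamp call ended without libraries 10 to 12 (-3.25, edgeR adjusted p = 0.0693). Nxpe2 differed by -3.22 ± 0.45 (edgeR adjusted p = 0.00028), and Or5m3b, named as an olfactory receptor, by -3.21 ± 0.65 (edgeR adjusted p = 0.00278). Whether Or5m3b counts come from an overlapping transcript was not tested, since the use of strand in counting is not known.

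**Figure D3:**
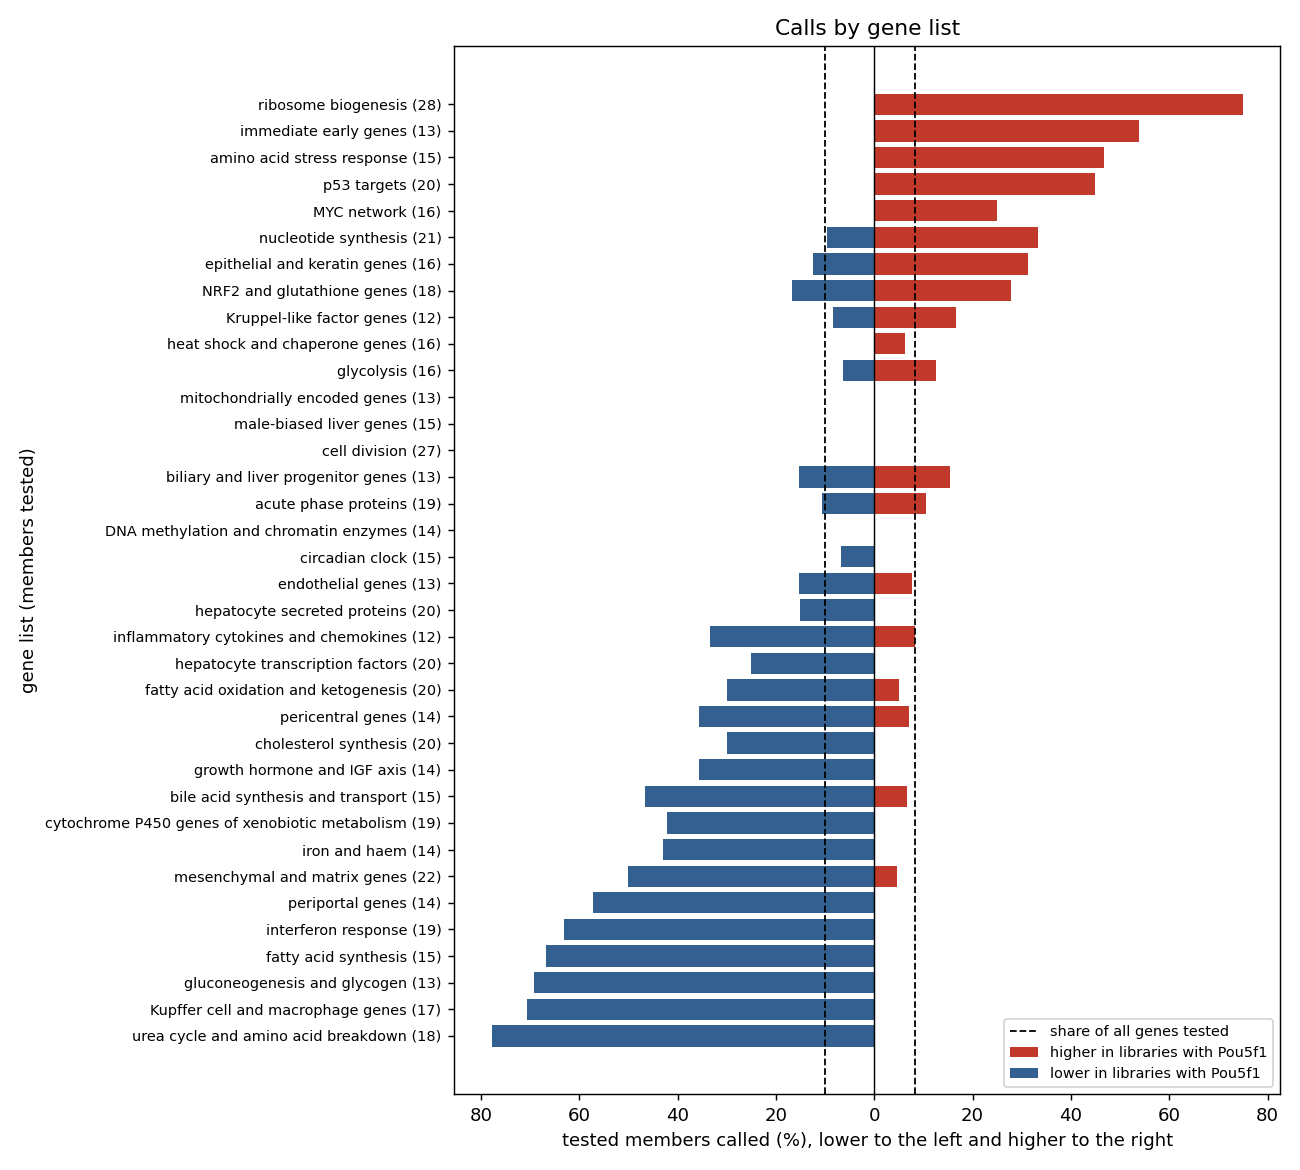
Share of tested members called higher (red, right) and lower (blue, left) in the libraries with Pou5f1, for the gene lists with at least 12 tested members, with the number tested in brackets. The dashed lines mark the shares over all tested genes, 8.34% higher and 10.0% lower. Ribosome biogenesis is at the top, with 21 of 28 higher, and urea cycle and amino acid breakdown at the bottom, with 14 of 18 lower.

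Most genes of ribosome production rose. All 28 members passed the filter, 21 were called higher and 0 lower, against 8.34% and 10.0% of all tested genes, and their median log2 fold change was 1.48. All 28 had a positive log2 fold change, and 14 did not overlap between the groups, against 3.68% of all tested genes. Nop2, a methyltransferase of ribosomal RNA, had 47.2, 55.5, 40.5, 89.5, 90.2 and 49.5 CPM in the libraries with Pou5f1, against 18, 21.1, 15.5, 11.2, 9.55, 23.4, 21.2, 25.6 and 19.1 CPM in those without it. The highest levels were in libraries 10 and 11, every library with Pou5f1 was above every other, and the log2 fold change was 1.50 ± 0.21 (edgeR adjusted p = 0.000241). Rrp12, needed for export of ribosomal subunits, was at 15.3 to 59.8 CPM (median 28.6) in the libraries with Pou5f1, against 1.92 to 10.6 CPM (median 5.63) in those without it, a log2 fold change of 2.21 ± 0.30 (edgeR adjusted p = 0.00024). Gar1, a protein of the H/ACA particles that modify ribosomal RNA, was at 8.26 to 42.8 CPM (median 23.9) in the libraries with Pou5f1, against 0.808 to 7.80 CPM (median 3.24) in those without it, a log2 fold change of 2.58 ± 0.36 (edgeR adjusted p = 0.000281). Ddx21, a nucleolar RNA helicase, was at 47 to 235 CPM (median 119) in the libraries with Pou5f1, against 16.5 to 48.7 CPM (median 24.5) in those without it, a log2 fold change of 1.95 ± 0.29 (edgeR adjusted p = 0.000376). The list's mean log2(CPM + 1) was 5.26 to 6.74 (median 5.80) with Pou5f1, against 3.84 to 4.70 (median 4.43) without it, without overlap. Members called higher and lower numbered 11 and 0 of 28 without libraries 10 to 12, against 3.71% and 1.65% of all genes tested there. Without libraries 4 to 6 they numbered 25 and 0 of 28, against 10.9% and 15.6%. The same shares, and 8.34% and 10.0% with all libraries, are the background for the counts of every list below.

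The promoters of this list were searched for the palindrome CACGTG, the sequence that Myc and its partner Max bind. RefSeq windows on GRCm38.p6, an earlier build than the GRCm39 of the files, run from 250 bases before to 50 after a gene's start. The list had 26 windows from 23 genes, and 7 of them held CACGTG, or 26.9%. The share was 7.15% over all 32851 windows, 9.72% over the genes tested, 12% over genes called higher and 5.71% over genes called lower. The windows of 2 genes called higher, Nop2 and Pes1, are printed as examples, with the match in capitals. The Pes1 call ended without libraries 10 to 12 (0.69, edgeR adjusted p = 0.0812).
Nop2, chr6:125131633-125131932, plus strand: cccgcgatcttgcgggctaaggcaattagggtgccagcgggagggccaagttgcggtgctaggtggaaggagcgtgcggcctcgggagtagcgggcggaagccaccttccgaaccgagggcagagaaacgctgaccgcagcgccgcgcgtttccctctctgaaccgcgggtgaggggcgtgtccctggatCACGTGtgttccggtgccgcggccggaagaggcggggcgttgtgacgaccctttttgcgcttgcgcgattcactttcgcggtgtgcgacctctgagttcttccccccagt
Pes1, chr11:3963725-3964024, plus strand: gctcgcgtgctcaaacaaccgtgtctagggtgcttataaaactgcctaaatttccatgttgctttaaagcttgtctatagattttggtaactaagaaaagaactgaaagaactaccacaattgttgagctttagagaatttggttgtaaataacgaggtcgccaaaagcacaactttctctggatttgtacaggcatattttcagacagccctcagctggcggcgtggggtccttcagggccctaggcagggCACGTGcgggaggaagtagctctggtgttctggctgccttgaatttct
A match is a string of letters, and binding was not measured. An octamer bound by Oct4, ATGCAAAT on either strand, was in 2.33% of windows of genes called higher, 1.47% of those called lower, 1.3% of those of genes tested and 1.74% of all windows. A motif of the SOX family, CATTGTT on either strand, was in 1.75%, 2.47%, 1.96% and 3.78% of the same 4 sets. Matches of the 4 motifs searched were not compared for overlap with each other.

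Fewer genes of nucleotide synthesis and of the Myc network were called. Of 21 tested nucleotide genes, 7 were called higher and 2 lower (median log2 fold change 0.83). Ctps, which makes CTP, was at 9.21 to 111 CPM (median 39.1) in the libraries with Pou5f1, against 1.88 to 6.32 CPM (median 3.57) in those without it, a log2 fold change of 3.39 ± 0.41 (edgeR adjusted p = 0.000102). Impdh2, the rate-limiting enzyme of guanine nucleotide synthesis, was at 57 to 138 CPM (median 102) in the libraries with Pou5f1, against 17.1 to 41.6 CPM (median 29.7) in those without it, a log2 fold change of 1.48 ± 0.21 (edgeR adjusted p = 0.000312). For both enzymes the groups did not overlap. Cad, which starts pyrimidine synthesis, differed by 1.52 ± 0.33 (edgeR adjusted p = 0.00393), and the call ended without libraries 10 to 12 (0.60, edgeR adjusted p = 0.315). Of 16 tested genes of the Myc network besides Myc, 4 were called higher and 0 lower. Mlx, a dimer partner of the glucose-sensing Mondo factors, was at 48.3 to 91.5 CPM (median 74.3) in the libraries with Pou5f1, against 15.8 to 38 CPM (median 27.6) in those without it, a log2 fold change of 1.17 ± 0.23 (edgeR adjusted p = 0.00221). Odc1, the polyamine enzyme long known as a Myc target, differed by 1.78 ± 0.40 (edgeR adjusted p = 0.00482), and not past the threshold without libraries 10 to 12 (1.0, edgeR adjusted p = 0.215). Nucleotide synthesis calls higher and lower numbered 2 and 0 of 21 without libraries 10 to 12, and 8 and 2 of 21 without libraries 4 to 6. For the Myc network they numbered 1 and 0 of 16 without libraries 10 to 12, and 4 and 0 of 16 without libraries 4 to 6. Among the Kruppel-like factor genes besides Klf4, 2 of 12 were called higher and 1 lower, against 8.34% and 10.0% of all tested genes. Klf3 was at 137 to 243 CPM (median 183) in the libraries with Pou5f1, against 23.4 to 87.6 CPM (median 50.7) in those without it, a log2 fold change of 1.62 ± 0.26 (edgeR adjusted p = 0.00066), and Klf16 differed by 1.57 ± 0.25 (edgeR adjusted p = 0.000607).

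No cell division gene was called. Of the 27 tested of 30 members, 0 were called by edgeR in either direction, 4 had an unadjusted p under 0.05, and DESeq2 called 0 higher and 2 lower. Their median log2 fold change was -0.44. The member with the smallest adjusted p was Kif11, a spindle motor, at 0.265 to 2.61 CPM (median 0.481) in the libraries with Pou5f1, against 0.627 to 13.2 CPM (median 1.22) in those without it and -1.87 ± 0.68 (edgeR adjusted p = 0.0552), and Mki67, a marker of cycling cells, was at 0.353 to 12.1 CPM (median 1.45) in the libraries with Pou5f1, against 0.193 to 49 CPM (median 2.77) in those without it. Among cell cycle inhibitors and senescence genes, 3 of 10 tested were called higher and 1 lower. Cdkn1a, which encodes the p53-induced inhibitor p21, had 64.1, 365, 649.6, 103, 149 and 206 CPM in the libraries with Pou5f1, against 137, 103, 24.3, 0.505, 14, 14.9, 9.41, 7.06 and 12.3 CPM in those without it. Its highest values were in libraries 5 and 6, the groups overlapped, and the log2 fold change was 2.86 ± 0.77 (edgeR adjusted p = 0.0132). The Cdkn1a call ended without libraries 4 to 6 (2.10, edgeR adjusted p = 0.0751).

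Stress and early response genes were higher in part. Of 20 tested p53 targets, 9 were called higher and 0 lower (median log2 fold change 0.96). Tnfrsf10b, a death receptor, was at 0.944 to 9.38 CPM (median 3.93) in the libraries with Pou5f1, against 0 to 1.75 CPM (median 0.62) in those without it, a log2 fold change of 2.42 ± 0.55 (edgeR adjusted p = 0.00549). Aen, an exonuclease of the p53 response, differed by 1.45 ± 0.27 (edgeR adjusted p = 0.00186), Zmat3 by 1.90 ± 0.37 (edgeR adjusted p = 0.00218) and Btg2, an anti-proliferative gene, by 2.43 ± 0.59 (edgeR adjusted p = 0.00779). For the p53 targets, calls higher and lower numbered 1 and 0 of 18 without libraries 10 to 12, and 9 and 0 of 20 without libraries 4 to 6. The calls of Aen, Zmat3 and Btg2 ended without libraries 10 to 12, with Aen (1.0, edgeR adjusted p = 0.095), Zmat3 (1.36, edgeR adjusted p = 0.0903) and Btg2 (1.30, edgeR adjusted p = 0.281). Of 13 tested immediate early genes, 7 were called higher and 0 lower (median 1.40). Junb, an AP-1 subunit, was at 91.9 to 408 CPM (median 328) in the libraries with Pou5f1, against 29.6 to 92.6 CPM (median 63.9) in those without it, a log2 fold change of 1.91 ± 0.30 (edgeR adjusted p = 0.000549). Fosl2, another AP-1 subunit, differed by 1.43 ± 0.32 (edgeR adjusted p = 0.00486). Members of this list called higher and lower numbered 2 and 0 of 12 without libraries 10 to 12, and 7 and 0 of 12 without libraries 4 to 6.

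Of 15 tested genes of the amino acid stress response, 7 were called higher and 0 lower (median 0.90). Nupr1, a stress-induced chromatin protein, had 15.1, 89.6, 40.3, 147, 167 and 41.6 CPM in the libraries with Pou5f1, against 2.88, 4.86, 1.07, 3.03, 2.41, 1.88, 7.53, 5.97 and 9.20 CPM in those without it. The groups did not overlap, and the log2 fold change was 3.96 ± 0.49 (edgeR adjusted p = 0.00012). Ddit4, an inhibitor of mTORC1 signalling, was at 58.7 to 177 CPM (median 99.5) in the libraries with Pou5f1, against 5.12 to 68.9 CPM (median 10.5) in those without it, a log2 fold change of 2.20 ± 0.50 (edgeR adjusted p = 0.0052). Amino acid stress calls higher and lower numbered 2 and 1 of 15 without libraries 10 to 12, and 8 and 0 of 15 without libraries 4 to 6. Of 18 tested NRF2 and glutathione genes, 5 were called higher and 3 lower. Gsr, which regenerates reduced glutathione, was at 82.5 to 333 CPM (median 217) in the libraries with Pou5f1, against 32.5 to 85.6 CPM (median 54.2) in those without it, a log2 fold change of 1.73 ± 0.27 (edgeR adjusted p = 0.000549). Gclc, which starts glutathione synthesis, differed by -1.52 ± 0.37 (edgeR adjusted p = 0.00771), and not past the threshold without libraries 10 to 12 (-1.52, edgeR adjusted p = 0.102). NRF2 and glutathione calls higher and lower numbered 3 and 0 of 18 without libraries 10 to 12, and 4 and 6 of 18 without libraries 4 to 6. Among 16 heat shock and chaperone genes 1 was called higher and 0 lower.

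**Figure D4:**
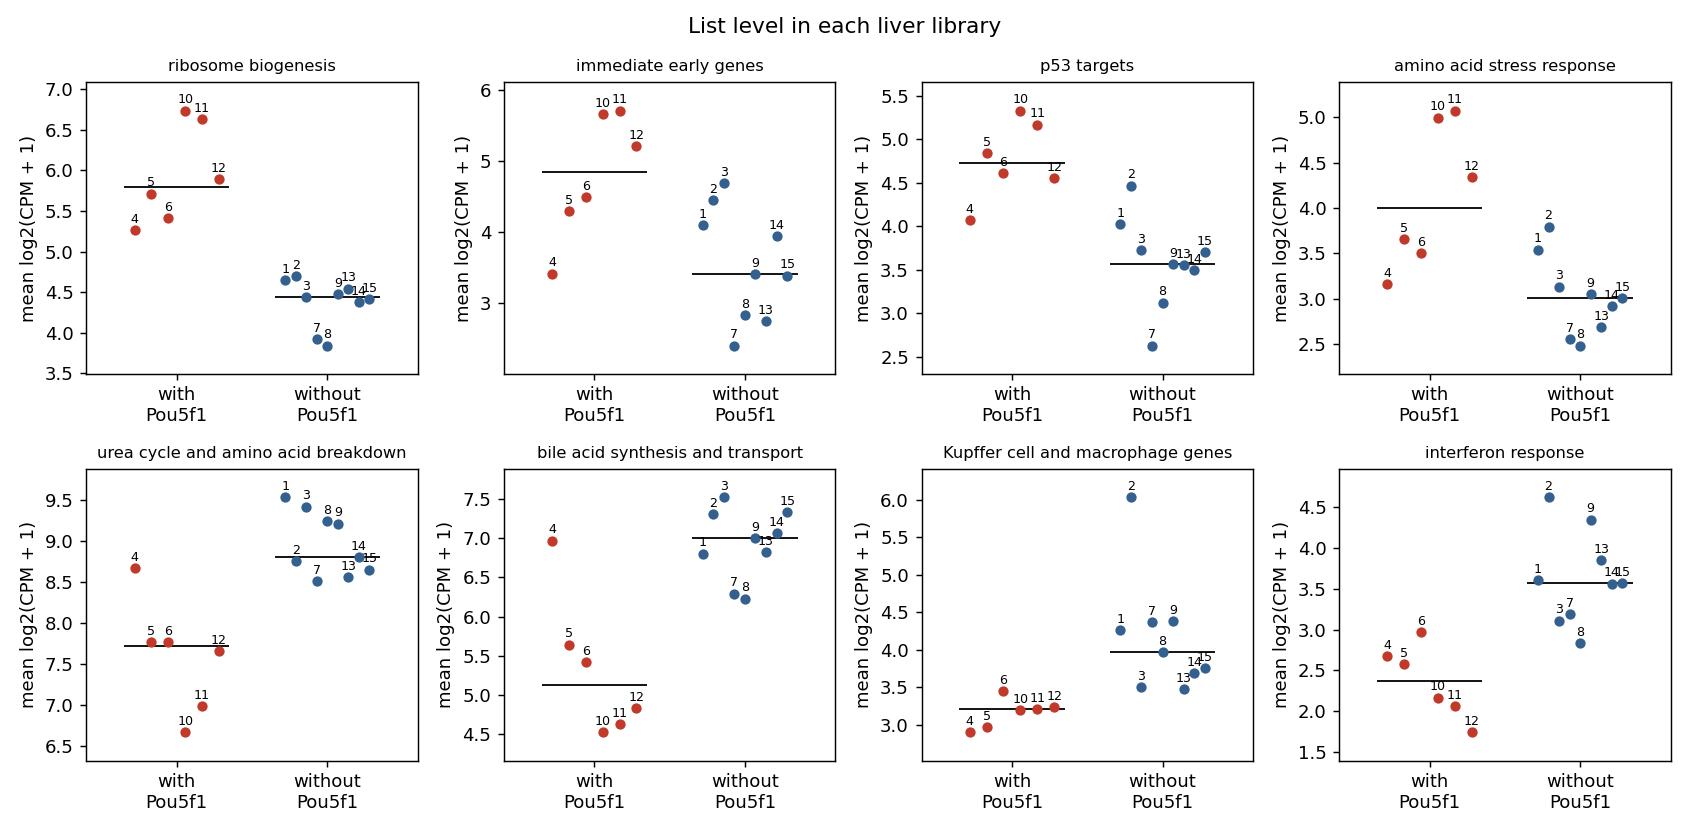
Mean log2(CPM + 1) of the members of 8 gene lists in each liver library, with the 6 libraries with Pou5f1 left and the 9 without it right in each panel. Points carry the library number and lines mark medians. The groups do not overlap for ribosome biogenesis; for bile acid genes library 4 lies within the range of the libraries without Pou5f1, and for the urea cycle list libraries 10 and 11 are the lowest of all 15.

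Most called genes of hepatocyte metabolism were lower. Of 18 genes of the urea cycle and amino acid breakdown, all tested, 14 were called lower and 0 higher, with a median log2 fold change of -1.59. Gls2, the liver glutaminase that feeds ammonia into the urea cycle, had 151, 30.5, 36.3, 17, 28.1 and 55.4 CPM in the libraries with Pou5f1, against 525, 206, 365, 194, 199.9, 259, 281, 288 and 264 CPM in those without it. The groups did not overlap, library 4 was the nearest to the others, and the log2 fold change was -2.63 ± 0.46 (edgeR adjusted p = 0.00107). Kmo, an enzyme of tryptophan breakdown, was at 19.1 to 119.9 CPM (median 49.1) in the libraries with Pou5f1, against 135 to 249.5 CPM (median 197) in those without it, a log2 fold change of -2.18 ± 0.41 (edgeR adjusted p = 0.00192). Ass1, the urea cycle enzyme that makes argininosuccinate, was at 241 to 1419 CPM (median 563) in the libraries with Pou5f1, against 1331 to 5450.0 CPM (median 2196) in those without it, a log2 fold change of -2.18 ± 0.48 (edgeR adjusted p = 0.00444). Slc25a15, the mitochondrial ornithine carrier of the cycle, differed by -2.21 ± 0.44 (edgeR adjusted p = 0.00244) and Haao, of tryptophan breakdown, by -2.25 ± 0.45 (edgeR adjusted p = 0.00267). Without libraries 10 to 12 these last 3 were not called, with Ass1 (-1.59, edgeR adjusted p = 0.0928), Slc25a15 (-2.06, edgeR adjusted p = 0.0524) and Haao (-1.84, edgeR adjusted p = 0.0854). Members of the list called higher and lower numbered 0 and 2 of 18 without libraries 10 to 12, and 0 and 15 of 18 without libraries 4 to 6.

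Of 15 bile acid genes, 7 were called lower and 1 higher (median -1.88). Abcb11, the pump that exports bile acids into bile, had 157, 108, 84.3, 22.1, 26.4 and 27.7 CPM in the libraries with Pou5f1, against 726, 523, 788, 216, 112, 164, 482, 436 and 529.7 CPM in those without it. The lowest values were in libraries 10, 11 and 12, library 4 was above library 8, and the log2 fold change was -2.79 ± 0.53 (edgeR adjusted p = 0.00183). Baat, which conjugates bile acids with taurine or glycine, was at 18.3 to 111 CPM (median 26.1) in the libraries with Pou5f1, against 172 to 361 CPM (median 207) in those without it, a log2 fold change of -2.62 ± 0.47 (edgeR adjusted p = 0.00127). Abcb4, the phospholipid exporter of bile, was at 26 to 81 CPM (median 37.9) in the libraries with Pou5f1, against 79.6 to 225 CPM (median 127) in those without it, a log2 fold change of -1.88 ± 0.29 (edgeR adjusted p = 0.00049). Slco1b2, an uptake carrier on the blood side, differed by -2.60 ± 0.51 (edgeR adjusted p = 0.00218), and without libraries 10 to 12 by -2.03 (edgeR adjusted p = 0.0506). The member called higher was Abcc3, an exporter to the blood, at 151 to 346 CPM (median 216) in the libraries with Pou5f1, against 15.6 to 163 CPM (median 96.1) in those without it (1.21 ± 0.33, edgeR adjusted p = 0.0152). Cyp7a1, the rate-limiting enzyme of bile acid synthesis, was not called, at 0 to 77.7 CPM (median 0.357) in the libraries with Pou5f1, against 11.3 to 155 CPM (median 75.5) in those without it and -2.70 ± 1.21 (edgeR adjusted p = 0.115). The Abcc3 call ended without libraries 10 to 12 (1.47, edgeR adjusted p = 0.052), without libraries 4 to 6 (0.90, edgeR adjusted p = 0.109) and without library 1 and the 2 libraries highest in mitochondrial share (1.16, edgeR adjusted p = 0.0634). Cyp7a1 was called lower in 5 of 28 alternatives, among them without library 4 (-7.06) and without libraries 4 to 6 (-8.86). The fit without library 4 is counted there both under its number and as the library highest in Pou5f1. For the bile acid list, calls higher and lower numbered 1 and 4 of 15 without libraries 10 to 12, and 0 and 12 of 15 without libraries 4 to 6.

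Of 14 periportal genes, 8 were called lower and 0 higher (median -1.52), and of 14 pericentral genes 5 were called lower and 1 higher (median -1.02). These lists share called members with others, so they are no separate result. Periportal Gls2, Ass1, Asl and Cps1 are also in the urea cycle list, Cyp2f2 in the cytochrome P450 list, and G6pc and Pck1 in the gluconeogenesis list. Pericentral Cyp27a1 is also in the bile acid list and Cyp2e1 in the cytochrome P450 list. Periportal Cyp2f2 was at 41.8 to 226 CPM (median 79.9) in the libraries with Pou5f1, against 164 to 779 CPM (median 376) in those without it, a log2 fold change of -2.20 ± 0.45 (edgeR adjusted p = 0.00292). Pericentral Oat, an ornithine enzyme, was at 95.5 to 289 CPM (median 106) in the libraries with Pou5f1, against 240.1 to 738 CPM (median 437) in those without it, a log2 fold change of -2.02 ± 0.45 (edgeR adjusted p = 0.00447). Of 19 tested cytochrome P450 genes of xenobiotic metabolism, 8 were called lower and 0 higher, among them Cyp2c37 with -2.11 ± 0.42 (edgeR adjusted p = 0.00237). Without libraries 10 to 12 these calls ended, for Cyp2f2 (-1.67, edgeR adjusted p = 0.0787), Oat (-1.82, edgeR adjusted p = 0.095) and Cyp2c37 (-1.83, edgeR adjusted p = 0.0805). Calls higher and lower among the periportal genes numbered 0 and 3 of 14 without libraries 10 to 12, and 0 and 10 of 14 without libraries 4 to 6. For the pericentral genes they numbered 0 and 0 of 14 without libraries 10 to 12, and 1 and 9 of 14 without libraries 4 to 6. Cytochrome P450 calls higher and lower numbered 0 and 0 of 19 without libraries 10 to 12, and 0 and 10 of 19 without libraries 4 to 6.

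Of 13 genes of gluconeogenesis and glycogen, 9 were called lower and 0 higher (median -1.49). Slc2a2, the hepatocyte glucose transporter, had 132, 62.5, 39.8, 4.58, 4.76 and 21.9 CPM in the libraries with Pou5f1, against 351, 277, 428, 143, 52.9, 248, 168, 233 and 249.6 CPM in those without it. Values of libraries 10 and 11 were the lowest, and the log2 fold change was -2.58 ± 0.65 (edgeR adjusted p = 0.00938). For this list, calls higher and lower numbered 0 and 2 of 13 without libraries 10 to 12, and 0 and 10 of 13 without libraries 4 to 6. The glycolysis list had 2 of 16 tested called higher and 1 lower, against 8.34% and 10.0% of all tested genes. Pgam1, a phosphoglycerate mutase of that list, was at 243 to 664 CPM (median 492) in the libraries with Pou5f1, against 54.1 to 212 CPM (median 146) in those without it, a log2 fold change of 1.47 ± 0.30 (edgeR adjusted p = 0.00267). Of 15 fatty acid synthesis genes, 10 were called lower and 0 higher (median -2.41), while 0 were called without libraries 10 to 12 and 11 without libraries 4 to 6. The groups overlapped in the mean log2(CPM + 1) of this list, at 5.34 to 7.33 (median 5.86) with Pou5f1. Without Pou5f1 the mean ran from 4.99 in library 8 to 9.85 in library 3 (median 7.63). Srebf1, the transcription factor of that pathway, was at 44.6 to 108 CPM (median 57) in the libraries with Pou5f1, against 23.8 to 424 CPM (median 315) in those without it, a log2 fold change of -2.21 ± 0.42 (edgeR adjusted p = 0.00201). Fads2, a desaturase, differed by -2.48 ± 0.57 (edgeR adjusted p = 0.00539). Without libraries 10 to 12 neither was called, with Srebf1 (-2.0, edgeR adjusted p = 0.0694) and Fads2 (-1.86, edgeR adjusted p = 0.127). Of 20 cholesterol synthesis genes 6 were called lower and 0 higher, and of 20 genes of fatty acid oxidation and ketogenesis 6 lower and 1 higher. Both lists had 0 calls without libraries 10 to 12. Without libraries 4 to 6, 1 cholesterol gene was called higher and 3 lower.

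Fewer regulators and secreted proteins of hepatocytes were called. Of 20 transcription factors, 5 were called lower and 0 higher (median -0.76). Hnf4a, a nuclear receptor that maintains hepatocyte genes, had 280.5, 137, 175, 65.5, 101 and 255 CPM in the libraries with Pou5f1, against 570.0, 600.2, 712, 146, 164, 562, 414, 500.5 and 321 CPM in those without it. The groups overlapped, and the log2 fold change was -1.51 ± 0.38 (edgeR adjusted p = 0.00978). Onecut1 was at 0.269 to 4.53 CPM (median 1.27) in the libraries with Pou5f1, against 2.09 to 138 CPM (median 8.18) in those without it, a log2 fold change of -4.0 ± 0.93 (edgeR adjusted p = 0.00613). Without libraries 10 to 12 neither was called, with Hnf4a (-1.30, edgeR adjusted p = 0.0896) and Onecut1 (-3.40, edgeR adjusted p = 0.124). For the transcription factors, calls higher and lower numbered 2 and 0 of 20 without libraries 10 to 12, and 0 and 10 of 20 without libraries 4 to 6. Of 20 secreted proteins 3 were called lower and 0 higher, against 10.0% and 8.34% of all tested genes. Alb was not called, with a log2 fold change of -0.57 ± 0.42 (edgeR adjusted p = 0.34). Ttr, the carrier of thyroid hormone and retinol-binding protein, was at 1014 to 4705 CPM (median 1902) in the libraries with Pou5f1, against 3628 to 6577 CPM (median 4995) in those without it, a log2 fold change of -1.49 ± 0.39 (edgeR adjusted p = 0.0111), and was not called with all genes kept (-1.40, edgeR adjusted p = 0.0578) or without libraries 10 to 12 (-1.31, edgeR adjusted p = 0.162). Of 14 genes of the growth hormone and IGF axis, 5 were called lower and 0 higher. Ghr, the growth hormone receptor, was at 57.2 to 229 CPM (median 103) in the libraries with Pou5f1, against 158 to 493 CPM (median 284) in those without it, a log2 fold change of -1.55 ± 0.34 (edgeR adjusted p = 0.0044), and the hormone it induces, Igf1, differed by -2.0 ± 0.53 (edgeR adjusted p = 0.0129). Neither was called without libraries 10 to 12, with Ghr (-1.01, edgeR adjusted p = 0.106) and Igf1 (-1.29, edgeR adjusted p = 0.171). The secreted protein and growth hormone lists had 0 calls without libraries 10 to 12. Among 14 iron and haem genes 6 were called lower and 0 higher, Hamp first. Tfr2, a sensor of transferrin iron, differed by -1.19 ± 0.32 (edgeR adjusted p = 0.0133), and without libraries 4 to 6 by -0.76 (edgeR adjusted p = 0.139). Among the iron genes, calls higher and lower numbered 0 and 1 of 14 without libraries 10 to 12, and 1 and 6 of 14 without libraries 4 to 6.

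Most Kupffer cell and macrophage genes were lower. In bulk samples, fewer cells of a type and less RNA per cell cannot be told apart. All 17 Kupffer cell and macrophage genes were tested, 12 were called lower and 0 higher, and all 17 had a negative log2 fold change (median -1.64). Cd5l, a secreted protein of tissue macrophages, had 19.5, 29.3, 25.2, 7.41, 6.55 and 10.8 CPM in the libraries with Pou5f1, against 56.5, 222, 52.8, 104, 69.4, 107, 52.1, 55.6 and 65 CPM in those without it. No library with Pou5f1 reached any of the others, and the log2 fold change was -2.65 ± 0.46 (edgeR adjusted p = 0.00102). Clec4f, a lectin restricted to Kupffer cells, was at 38.5 to 79.2 CPM (median 52.8) in the libraries with Pou5f1, against 55 to 389.8 CPM (median 124) in those without it, a log2 fold change of -1.64 ± 0.41 (edgeR adjusted p = 0.0092). Timd4, a receptor of resident Kupffer cells, was at 1.27 to 4.13 CPM (median 2.32) in the libraries with Pou5f1, against 2.77 to 52.4 CPM (median 7.53) in those without it, a log2 fold change of -2.40 ± 0.59 (edgeR adjusted p = 0.00841). Ccr2, a receptor of recruited monocytes, was at 0.259 to 1.48 CPM (median 0.796) in the libraries with Pou5f1, against 1.16 to 11.7 CPM (median 3.45) in those without it, a log2 fold change of -2.50 ± 0.48 (edgeR adjusted p = 0.00207). The list summed to 232 to 353 CPM with Pou5f1, against 347 to 2598 CPM without it, with the highest sum in library 2. Members called higher and lower numbered 0 and 2 of 16 without libraries 10 to 12, and 0 and 9 of 17 without libraries 4 to 6. Trem2 passed the filter only through the libraries without Pou5f1. Clec4f (-1.32, edgeR adjusted p = 0.171) and Timd4 (-1.89, edgeR adjusted p = 0.161) were not called without libraries 10 to 12. Clec4f and Timd4, the defining markers, were at or above 1 CPM in all 15 libraries.

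Of 15 lymphocyte genes only the 4 B cell and plasma cell genes Cd79a, Cd79b, Ighm and Jchain passed the filter, and 4 were called lower. Cd79a, Cd79b and Jchain reached 1 CPM in none of the libraries with Pou5f1, so they passed only through the group in which they are high. Ighm, the heavy chain of IgM, was at 0.971 to 3.78 CPM (median 1.36) in the libraries with Pou5f1, against 2.51 to 771 CPM (median 14.9) in those without it. The highest value of each of the 4 genes was in library 1. None of them was called without libraries 10 to 12, with Cd79a (-5.39, edgeR adjusted p = 0.0887), Cd79b (-3.93, edgeR adjusted p = 0.0536), Ighm (-5.59, edgeR adjusted p = 0.102) and Jchain (-5.24, edgeR adjusted p = 0.132). Jchain was also not called with limma-voom or without libraries 4 to 6. The 15 genes summed to 2.65 to 9.91 CPM with Pou5f1, against 8.78 to 967 CPM without it. Cd79b, part of the B cell receptor, was at 0 to 0.354 CPM (median 0.223) in the libraries with Pou5f1, against 0.290 to 14.3 CPM (median 2.56) in those without it, a log2 fold change of -4.12 ± 0.78 (edgeR adjusted p = 0.00183). T cell and natural killer genes Cd3e and Nkg7 were under the filter, at or below 0.542 and 0.472 CPM with Pou5f1, against up to 5.85 and 5.34 CPM without it. Of 6 tested erythroid genes 4 were called lower, all of them globins, whose copies can share reads. Hba-a2 was at 7.79 to 20.3 CPM (median 17.3) in the libraries with Pou5f1, against 21 to 191 CPM (median 40.8) in those without it, a log2 fold change of -2.22 ± 0.42 (edgeR adjusted p = 0.00197). It was not called without libraries 10 to 12, nor was any other of the 6 (-2.14, edgeR adjusted p = 0.0512). Of 7 tested neutrophil genes 0 were called by edgeR, 4 had an unadjusted p under 0.05, and DESeq2 called 2 higher and 1 lower. Calls among them, higher and lower, numbered 0 and 1 of 4 without libraries 10 to 12, and 3 and 0 of 7 without libraries 4 to 6. The neutrophil genes summed to 3.42 to 292 CPM with Pou5f1, against 11.8 to 98.4 CPM without it.

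Interferon response genes were lower on the same side. Of 19, all tested, 12 were called lower and 0 higher (median -1.86). Ifit3, an antiviral protein induced by interferon, had 5.64, 1.94, 4.36, 1.98, 2.15 and 0.530 CPM in the libraries with Pou5f1, against 10.9, 23.8, 12.8, 10.8, 7.90, 26.8, 23.3, 19.6 and 17.7 CPM in those without it. Ifit3 is 1 of the 12 genes picked for a large decrease without overlap, and its log2 fold change was -2.84 ± 0.43 (edgeR adjusted p = 0.000429). Cxcl10, a chemokine induced by interferon gamma, was at 0.0883 to 1.64 CPM (median 1.02) in the libraries with Pou5f1, against 1.93 to 16.2 CPM (median 3.76) in those without it, a log2 fold change of -2.55 ± 0.54 (edgeR adjusted p = 0.00345). Ifi44 was at 0.177 to 1.98 CPM (median 0.684) in the libraries with Pou5f1, against 1.54 to 14 CPM (median 4.75) in those without it, a log2 fold change of -3.10 ± 0.60 (edgeR adjusted p = 0.00209). The list level was 1.74 to 2.97 (median 2.37) with Pou5f1, against 2.83 to 4.62 (median 3.56) without it. Members called higher and lower numbered 0 and 3 of 19 without libraries 10 to 12, and 0 and 15 of 19 without libraries 4 to 6. The part of the lower macrophage and lymphocyte genes in this difference was not tested. Of 12 tested cytokine and chemokine genes, 4 were called lower and 1 higher, and Cxcl9, a relative of Cxcl10, was at 0.457 to 8.26 CPM (median 1.76) in the libraries with Pou5f1, against 4.15 to 49.5 CPM (median 14.4) in those without it, a log2 fold change of -2.87 ± 0.56 (edgeR adjusted p = 0.00221). Cxcl9 was not called without libraries 10 to 12 (-2.48, edgeR adjusted p = 0.0715). The member called higher, the neutrophil attractant Cxcl1, lost its call in 18 of 28 alternatives, among them without any one of libraries 1, 2, 3, 5, 8 and 9 to 15. Cxcl13, called lower, lost it in 12 of 27, among them without any one of libraries 2, 4, 5, 10 and 11. Cytokine and chemokine calls higher and lower numbered 0 and 2 of 12 without libraries 10 to 12, and 3 and 3 of 12 without libraries 4 to 6.

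The promoter windows of the interferon list were searched on both strands for GAAA followed by any 2 bases and GAAA, the core of the element that interferon-activated factors bind. Of 16 windows from 14 genes, 9 held it, or 56.2%. The share was 3.44% over all windows, 3.14% over the genes tested, 1.94% over genes called higher and 6.41% over genes called lower. The windows of Ifit3 and Cxcl10, both without overlap between the groups, are printed with the matches in capitals, which read TTTC, 2 bases and TTTC where the match is on the other strand.
Ifit3, chr19:34583279-34583578, plus strand: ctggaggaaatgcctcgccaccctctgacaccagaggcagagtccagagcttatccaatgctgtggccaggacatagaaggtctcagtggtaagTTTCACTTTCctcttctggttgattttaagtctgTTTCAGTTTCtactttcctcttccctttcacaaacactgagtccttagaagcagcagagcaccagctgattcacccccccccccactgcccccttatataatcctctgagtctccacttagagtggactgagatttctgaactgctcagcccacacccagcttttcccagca
Cxcl10, chr5:92348840-92349139, minus strand: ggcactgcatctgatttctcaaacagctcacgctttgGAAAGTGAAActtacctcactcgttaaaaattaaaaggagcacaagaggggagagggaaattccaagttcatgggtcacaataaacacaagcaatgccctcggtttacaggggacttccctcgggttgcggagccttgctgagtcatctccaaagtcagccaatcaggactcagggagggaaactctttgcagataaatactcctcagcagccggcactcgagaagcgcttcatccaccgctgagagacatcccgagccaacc
These shares describe how the list's promoters are built, whatever its members' levels.

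Supporting cells and epithelial genes were measured as well. Of 22 tested mesenchymal and matrix genes, 11 were called lower and 1 higher (median -1.26). Col3a1, a fibrillar collagen, had 10.9, 7.19, 3.79, 9.03, 1.08 and 1.59 CPM in the libraries with Pou5f1, against 92.4, 132, 33.3, 16.7, 3.67, 22.4, 67.4, 29.7 and 33.5 CPM in those without it. The lowest values were in libraries 11 and 12, the groups overlapped, and the log2 fold change was -3.24 ± 0.63 (edgeR adjusted p = 0.0021). Vim, the intermediate filament vimentin, was at 6.89 to 21.9 CPM (median 14) in the libraries with Pou5f1, against 12.7 to 105 CPM (median 30.5) in those without it, a log2 fold change of -1.83 ± 0.36 (edgeR adjusted p = 0.00215). Of 13 endothelial genes 2 were called lower and 1 higher, against 10.0% and 8.34% of all tested genes. The member called higher was Lyve1, whose call ended in 13 of 28 alternatives, among them without libraries 10 to 12 (0.28, edgeR adjusted p = 0.871). Endothelial calls higher and lower numbered 0 and 0 of 13 without libraries 10 to 12, and 2 and 5 of 13 without libraries 4 to 6. Kdr, a VEGF receptor, differed by -1.85 ± 0.40 (edgeR adjusted p = 0.0042), and not past the threshold without libraries 10 to 12 (-1.28, edgeR adjusted p = 0.108). Mesenchymal and matrix calls higher and lower numbered 0 and 3 of 21 without libraries 10 to 12, and 0 and 8 of 21 without libraries 4 to 6. The mesenchymal and matrix genes summed to 984 to 2635 CPM with Pou5f1, against 817 to 3232 CPM without it.

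Epithelial and keratin genes had 5 of 16 tested called higher and 2 lower. Anxa2, a membrane-binding annexin, had 20.3, 576, 361, 645, 524 and 255 CPM in the libraries with Pou5f1, against 37, 44, 17.2, 6.77, 4.44, 15.9, 16.9, 14.2 and 24.9 CPM in those without it. Library 4 lay among the libraries without Pou5f1, the other 5 above all of them, and the log2 fold change was 4.13 ± 0.51 (edgeR adjusted p = 0.000113). Epithelial and keratin calls higher and lower numbered 5 and 0 of 16 without libraries 10 to 12, and 3 and 3 of 16 without libraries 4 to 6. Of 13 tested biliary and progenitor genes, 2 were called higher and 2 lower, against 8.34% and 10.0% of all tested genes. Cd24a, a surface protein of progenitor and biliary cells, was at 3.07 to 206 CPM (median 126) in the libraries with Pou5f1, against 1.11 to 23.6 CPM (median 5.12) in those without it, with library 4 again lowest at 3.07 CPM, and a log2 fold change of 4.07 ± 0.62 (edgeR adjusted p = 0.000439). Sox4, a transcription factor of that list, fell, at 0.359 to 1.06 CPM (median 0.607) in the libraries with Pou5f1, against 0.869 to 8.31 CPM (median 2.96) in those without it, a log2 fold change of -2.62 ± 0.48 (edgeR adjusted p = 0.00153). The biliary keratins were not called. Krt19 was at 0.618 to 108 CPM (median 2.70) in the libraries with Pou5f1, against 1.06 to 15.6 CPM (median 2.87) in those without it (2.12 ± 0.90, edgeR adjusted p = 0.0978), and was called higher in 7 of 27 alternatives. Without library 10 alone its log2 fold change was -0.23 (edgeR adjusted p = 0.866). It was 0.37 without libraries 10 to 12 (edgeR adjusted p = 0.831) and 0.48 with limma-voom (adjusted p = 0.754). Krt7, the other keratin, differed by 0.18 ± 0.57 (edgeR adjusted p = 0.845). Of 12 intestinal and gastric genes 3 were tested, and they summed to 54.8 to 1166 CPM with Pou5f1, against 38.4 to 335 CPM without it over the 12. Prss2, a pancreatic protease, was at 0 in all 6 libraries with Pou5f1 and up to 0.202 CPM without it.

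The pluripotency network beyond the factors was mostly under the filter. Of 26 members 7 were tested, and 2 were called higher and 0 lower. Nanog, a core pluripotency gene, was at 0 in all 15 libraries. Tfcp2l1, a transcription factor of naive pluripotency, had 21.2, 50.6, 45.5, 35.4, 27.3 and 10.8 CPM in the libraries with Pou5f1, against 11.8, 9.14, 9.02, 0.707, 1.06, 1.88, 4.39, 4.87 and 9.98 CPM in those without it. Library 12 was within the range of the libraries without Pou5f1, and the log2 fold change was 2.31 ± 0.45 (edgeR adjusted p = 0.00218). Tdh, threonine dehydrogenase of mouse embryonic stem cells, had 3.42, 84.1, 21.5, 254, 214 and 56.1 CPM in the libraries with Pou5f1, against 0, 0, 0, 0, 0.290, 0, 2.61, 7.92 and 19.3 CPM in those without it. It was 0 in 5 of the 9 libraries without Pou5f1 and differed by 4.74 ± 1.23 (edgeR adjusted p = 0.0111), and the call ended without libraries 10 to 12 (3.25, edgeR adjusted p = 0.185). L1td1, an RNA-binding protein of stem cells, was under the filter with 0, 0.342, 0, 25.6, 19.2 and 3.44 CPM in libraries 4, 5, 6, 10, 11 and 12. The fetal liver list had 0 of 8 tested called higher and 1 lower.

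Acute phase proteins had 2 of 19 called higher and 2 lower, against 8.34% and 10.0% of all tested genes. They summed to 11299 to 141474 CPM with Pou5f1, against 12988 to 84166 CPM without it. Crp, C-reactive protein, was at 16.5 to 86.5 CPM (median 42.7) in the libraries with Pou5f1, against 63.8 to 397 CPM (median 281) in those without it, a log2 fold change of -2.66 ± 0.50 (edgeR adjusted p = 0.00183). The members called higher were Serpina3n and Lbp, which binds bacterial lipopolysaccharide. The Lbp call ended in 16 of 28 alternatives, among them without any one of libraries 1, 2, 3, 5, 6, 9 and 10 to 15. Acute phase calls higher and lower numbered 0 and 1 of 19 without libraries 10 to 12, and 1 and 2 of 19 without libraries 4 to 6. The list's median log2 fold change was 0.19, but -1.62 without libraries 10 to 12 and 0.79 without libraries 4 to 6. Mitochondrially encoded genes had 0 of 13 called by edgeR, with 0 at an unadjusted p under 0.05 and 0 calls by DESeq2. Of 14 tested DNA methylation and chromatin enzymes 0 were called by edgeR or DESeq2, with 3 at an unadjusted p under 0.05. Male-biased liver genes had 0 of 15 called by edgeR, 3 at an unadjusted p under 0.05 and 3 called lower by DESeq2. With a Y-linked covariate 4 of them were called lower, and without libraries 4 to 6, 7 of 15. Circadian clock genes had 1 of 15 called lower (0 and 0 of 14 without libraries 10 to 12, and 1 and 5 of 15 without libraries 4 to 6, higher and lower). Of 7 tested female-biased liver genes 2, Fmo2 and Cux2, were called lower, but 1 higher and 1 lower with a Y-linked covariate. The level of that list was 6.47 in library 1, which lacked Y-linked counts, against 0.645 to 2.88 in the other libraries. The Cux2 call ended in 11 of 26 alternatives, among them without library 1 and with the Y-linked covariate. Of 2 tested pancreas genes and 2 tested adipocyte genes 0 were called by edgeR or DESeq2, and 1 of the 4, Fabp4 of adipocytes, had an unadjusted p under 0.05. Among possible host loci of a transgene, Col1a1 and Pparg were called lower, by -2.57 ± 0.80 and -1.67 ± 0.51, but leaving out library 11, library 12, libraries 10 to 12 or libraries 4 to 6 ended both calls, as did limma-voom, and leaving out library 3, 5 or 6 ended that of Pparg. The other 3 tested loci were not called. The 4 tested Y-linked genes were not called by edgeR or DESeq2, with 0 at an unadjusted p under 0.05.

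The 6 libraries with Pou5f1 differed among themselves. Serpina3n, an acute phase protease inhibitor, had 131, 252, 758, 21105, 24286 and 22524 CPM in the libraries with Pou5f1, against 376, 435, 316, 746, 1912, 952, 77.9, 201 and 146 CPM in those without it. Libraries 10, 11 and 12 were more than 10 times above all others. The log2 fold change was 3.81 ± 1.04 (edgeR adjusted p = 0.0142), but -1.02 without these 3 (edgeR adjusted p = 0.602). Psat1, an enzyme of serine synthesis, was at 0.826, 8.56, 7.25, 179.7, 153 and 75.7 CPM in libraries 4, 5, 6, 10, 11 and 12, against 0.101 to 6.42 CPM (median 0.837) without Pou5f1. Ier3, an early response gene, was at 0.826, 3.54, 3.19, 42.9, 44.5 and 39.4 CPM in the same order, against 0.483 to 7.98 CPM (median 1.88) without Pou5f1. Its log2 fold change was 3.06 ± 0.68 (edgeR adjusted p = 0.00476), but -0.02 without libraries 10 to 12 (edgeR adjusted p = 0.987). Timp1, an inhibitor of matrix proteases, was at 0, 6.39, 4.92, 81.2, 61.3 and 21.3 CPM, against 0 to 3.76 CPM (median 0.606) without Pou5f1. It differed by 4.81 ± 0.97 (edgeR adjusted p = 0.00274). Timp1 was tested in only 17 of 28 alternatives, and was under the filter without libraries 10 to 12 and without libraries 4 to 6. In these 4 genes libraries 10, 11 and 12 held the highest values of all 15. The calls of all 4 ended with limma-voom, that of Psat1 also without libraries 10 to 12 (1.43, edgeR adjusted p = 0.327; 4.98 ± 0.91 with them), and that of Serpina3n without library 1 and the 2 libraries highest in mitochondrial share.

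A different set of genes stood out in libraries 5 and 6. Krt8, a keratin of simple epithelia and hepatocytes, was at 688, 3716, 2655, 437, 379 and 319.6 CPM in libraries 4, 5, 6, 10, 11 and 12, against 153 to 444 CPM (median 298) without Pou5f1. Sfn, the epithelial 14-3-3 sigma protein, was at 13.3, 438, 500.0, 18.8, 15.5 and 8.39 CPM in the same order, against 0.386 to 20.4 CPM (median 1.62) without Pou5f1. Hspb1, a small heat shock protein, was at 37.6, 244, 129, 49.5, 30.2 and 21.3 CPM, against 11 to 30.9 CPM (median 23) without Pou5f1. The log2 fold changes were 2.06 ± 0.50 (edgeR adjusted p = 0.00743) for Krt8, 4.75 ± 1.07 (edgeR adjusted p = 0.00517) for Sfn and 1.78 ± 0.44 (edgeR adjusted p = 0.00842) for Hspb1. None of these 3 was called without libraries 4 to 6, with Krt8 (0.18, edgeR adjusted p = 0.674), Sfn (1.12, edgeR adjusted p = 0.365) and Hspb1 (0.40, edgeR adjusted p = 0.327). Muc5ac, a gastric and airway mucin, was at 1.89, 165, 339, 0.141, 0 and 0 CPM, and at 0 in 6 of the libraries without Pou5f1, with 5.54, 4.14 and 14 CPM in libraries 13, 14 and 15. Its log2 fold change was 4.95 ± 1.69 (edgeR adjusted p = 0.0423), and the call ended with DESeq2, limma-voom, a Y-linked covariate, or without any one of libraries 1, 2, 3, 7, 8 and 9. These are 9 of the 17 alternatives, of 28, in which Muc5ac was tested. It was under the filter without libraries 4 to 6 and without any one of libraries 4, 5, 6, 13, 14 and 15. Library 4, the highest in Pou5f1, was below libraries 5 and 6 in each of these 4 genes. The genes of these 2 paragraphs were picked from the called list members with their values known.

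**Figure D5:**
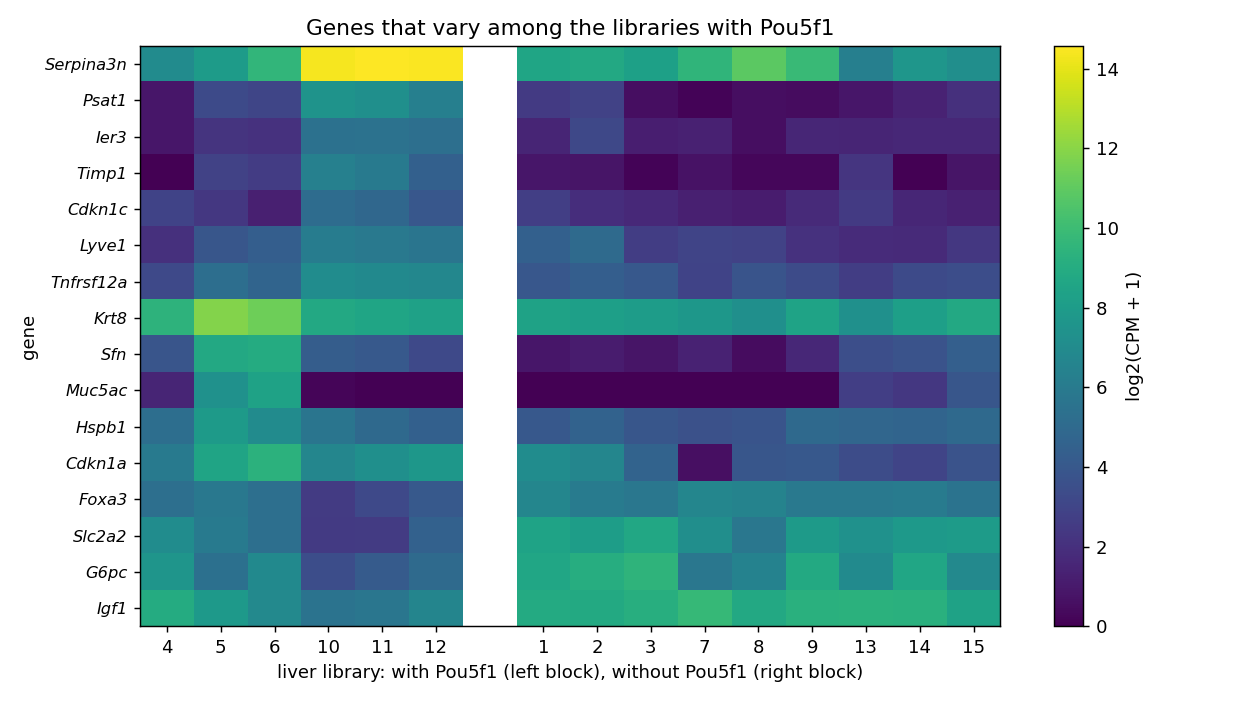
Levels as log2(CPM + 1) of 16 genes that vary among the libraries with Pou5f1 (left block), beside the libraries without it (right block). Serpina3n to Tnfrsf12a are highest in libraries 10 to 12, Krt8 to Cdkn1a in libraries 5 and 6, and Foxa3 to Igf1 lowest in libraries 10 and 11.

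The difference was set against that in small intestine, where the same rule gave 6 libraries with Pou5f1 and 7 without it, and 2 libraries between 1 and 5 CPM were not used. In a joint fit, 1237 of 15617 genes differed between the tissues in their log2 fold change, or 7.92%, by edgeR's test of the interaction with the same thresholds. Of the 24 genes with the largest changes in liver among those without overlap, 7 differed between tissues. Them5 was not among them, with 5.67 in small intestine and a difference of 1.97 (edgeR adjusted p = 0.7). Hamp was, with a log2 fold change of 3.45 in small intestine and a difference, liver minus small intestine, of -6.26 (edgeR adjusted p = 0.00609).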

How the data were processed

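Per the labels' protocols, RNA of frozen tissue was extracted with TRIzol and a company prepared and sequenced cDNA libraries. The authors deposited estimated counts per gene for 96 libraries, which need not be whole, and 26.1% of the liver values above 0 lay more than 1e-06 off the nearest whole number. The submitters' processing notes name GRCm39 and DESeq2, without a version. Aligner, counter, annotation and strand setting were not given in the sources used here, so antisense, overlapping and near-identical genes are uncertain. A second deposited table of normalised values was not used.

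CPM was the estimated count over the library total, times 1000000, and 310 gene rows without a name, at most 0.113% of a liver library, stayed in that total. Estimated counts were rounded and tested with edgeR 4.0.16 (TMM scaling, quasi-likelihood F test, Benjamini-Hochberg adjustment over all genes tested). The standard error is the log2 fold change divided by the square root of F. No 2 of the 15 liver libraries held identical values. The alternatives used DESeq2 1.42.0 and limma 3.58.1, other scalings, filters and covariates, and left-out libraries. Leaving out library 4 and leaving out the library highest in Pou5f1 are the same fit, and both are counted among the alternatives. The Y-linked covariate sets only library 1 apart, so it is close to leaving out that library.

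The libraries and the 48 gene lists, of 746 genes with 741 matched and 624 tested, were chosen with earlier results of these data known. Some genes, such as Cdkn1a, Btg2 and Hamp, are in more than 1 list, so the counts of different lists are not independent. Named genes were called genes with a mean of 5 CPM or more, the 12 highest and 12 lowest fold changes without overlap, then up to 4 called members per list with the smallest adjusted p, or the smallest one where none was called, and the possible host loci and Y-linked genes. Predicted, mitochondrially encoded and factor genes were left out of the ranking. List levels are means of log2(CPM + 1) over all members. CPM ranges, overlaps and list levels do not use the TMM scaling of the test. Alb, Abcc3, Cyp7a1, Mki67, Pes1, Clec4f, Timd4, Cd3e, Nkg7, Prss2, Krt7, Krt19, L1td1 and Fabp4 fall outside that rule, and were picked with their values known or as markers of a cell type. The 10 of them that were tested were followed through the same alternatives.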

Additional observations from a re-analysis of the deposited data

Results flagged for a closer look

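Single libraries far from the rest of their group were looked for in 3 measures of the libraries and in 24 genes, as log2(CPM + 1). The 24 genes are those with the largest changes among genes without overlap. Of 54 such groups, 7 held one. The cut used passes about 1 in 20 independent groups, but these groups share libraries and the genes were picked for their differences. Whether 7 is more than chance gives can therefore not be told. Library 4 was far below the other libraries with Pou5f1 for Liph at 3.19 CPM, for Avil at 76.0 CPM and for Gna14 at 6.84 CPM. Library 5 was the lowest for Tgtp2, at 0.0 CPM. Among the libraries without Pou5f1, library 15 was far above the rest for Liph at 1.88 CPM, library 2 for Adgre4 at 40 CPM and library 7 for Hamp at 4271 CPM.

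The log2 fold change of 7 of the 24 genes differed between liver and small intestine by edgeR's test of the interaction. As liver minus small intestine, the difference was 7.04 for Liph, 4.28 for Gpx2, 4.64 for Slc10a6, 7.0 for Cdhr2 and 3.44 for Ptk6. It was -2.46 for Csad and -6.26 for Hamp.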

How the results depend on the processing

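The counts of 1098 genes called higher and 1317 called lower stayed within 1.5 times under the other scaling, filters, covariates, DESeq2 and limma-voom, and when any 1 library was left out (918 to 1370 higher, 950 to 1833 lower). Without libraries 10 to 12 they were 472 and 210, and without libraries 4 to 6 the lower count was 1978. Leaving out 3 libraries also leaves 3 in the group, and the cause was otherwise not tested. Of 156 called genes among the 170 named ones, 54 kept an adjusted p under 0.05 in all of the alternatives in which they were tested, of 28. It was lost by 92 without libraries 10 to 12, by 19 without libraries 4 to 6 and by 21 when 1 library was left out. The size of the fold change was not part of these counts. The direction of Serpina3n (-1.02) and of Ier3 (-0.023) reversed without libraries 10 to 12. Both also lost an adjusted p under 0.05 there and are not among the 92. The 1237 genes that differed between tissues became 1507 without small intestine library 5, the one with the highest mitochondrially encoded share (62.3%) in that fit. No paired analysis was possible because the columns carry neither a genotype nor a replicate number. Depth limits the genes near 0 without Pou5f1, whose fold changes depend on a few counts.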
